A study of Mus musculus with 19 samples.

Results

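The mRNA decay machinery was followed here as 56 genes of the 20436 in each count table, taken as the rows with listed symbols and sorted by role into 9 groups. These were CCR4-NOT (10 genes), other deadenylases (3), decapping (6), 5′-to-3′ exonucleases (2), the LSM ring (7), the RNA exosome (10), nonsense-mediated decay (7), BTG/TOB adaptors (4), and Argonaute with GW182 proteins (7). The choice rested on symbols and not on a measured value, although earlier results of these data were known when it was made. All 56 had enough counts to be tested in every comparison, so no member is missing from the counts given here.

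RNA-seq and ribosome profiling were carried out on hippocampal slices of wild-type male mice of postnatal day 28 to 42, with the slices of several animals pooled in each library and the CA3 region left in place. Slices received DHPG at 100 µM for 5 min, an agonist of group I metabotropic glutamate receptors that induces long-term depression, or the ACSF vehicle (basal), and all were then chilled in cycloheximide at 100 µg/ml, which holds ribosomes on mRNA. The 19 libraries were RNA of 4 basal and 5 DHPG slice pools and RPFs (ribosome-protected fragments, read where a ribosome shields its mRNA from nuclease) of 5 basal and 5 DHPG pools. Libraries of one replicate number were taken as one block in the fits. RNA replicate 5 has no basal partner, so it adds nothing to a change measured within blocks.

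Most cytoplasmic mRNAs are lost from the poly(A) tail inward. The tail is shortened by PAN2-PAN3 and by CCR4-NOT, after which the LSM ring binds the shortened end, Dcp2 removes the cap and Xrn1 degrades the body, while the exosome degrades from the other end. Nonsense-mediated decay, centred on the helicase Upf1, and Argonaute with its GW182 partners, guided by microRNAs, feed chosen mRNAs into the same enzymes, and in neurons these routes act on mRNAs that are translated at synapses.

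Total counts were 4870813 to 7793244 in RNA libraries and 5692064 to 22092434 in RPF libraries. Markers of excitatory neurons summed to 4190-5920 CPM (counts scaled to a common library size) in basal and 4270-5900 CPM in DHPG RNA. The list of 4 CA3 markers was present in every group, at 201-247 CPM in basal RNA. In choroid plexus, 3 of 4 markers (Ttr, Folr1 and Aqp1) lay under 1 CPM in basal libraries. The 6 oligodendrocyte markers varied between libraries, 3990-8390 CPM in basal and 4600-9450 CPM in DHPG RPFs, with 5 of 6 higher after DHPG and 1 past the threshold. Among 5 interneuron markers 1 passed the RPF threshold. The 6 thalamus markers are a list seen among earlier calls of these data. All 6 passed the RPF threshold after DHPG, beside 29 of 13208 genes tested (0.22%). Their summed RPF levels were 106-134 CPM in basal and 113-178 CPM in DHPG libraries (Shox2 was under 1 CPM). In RNA all 5 tested were higher (median log2 change 0.61) and 1 passed, beside 1 of all 12935 genes tested. The part of these markers in the values of the decay genes was not tested. In slices, fewer cells that express a gene and less RNA per cell cannot be told apart.

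Decay genes were expressed at the level of an ordinary gene. Levels per length, as CPM per kilobase (RNA over the transcript, RPF over the coding sequence without 30 nt at each end), had a median over the 56 genes of 9.59 in basal RNA and 18.4 in basal RPFs, beside 9.64 and 18.3 over the genes tested. In RNA, 28 of the 56 stood above the median gene, and in RPFs 28. Together they took 0.225-0.285% of RNA counts and 0.193-0.208% of RPF counts per library. The range was wide, 0.883-61.1 in RNA and 1.33-227 in RPFs. Basal replicates varied less in RPFs than in RNA: the coefficient of variation had a median of 9.2% in RPFs and 15.3% in RNA over the 56 genes, and 10.2% and 18% over all genes tested.

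**Figure D1:**
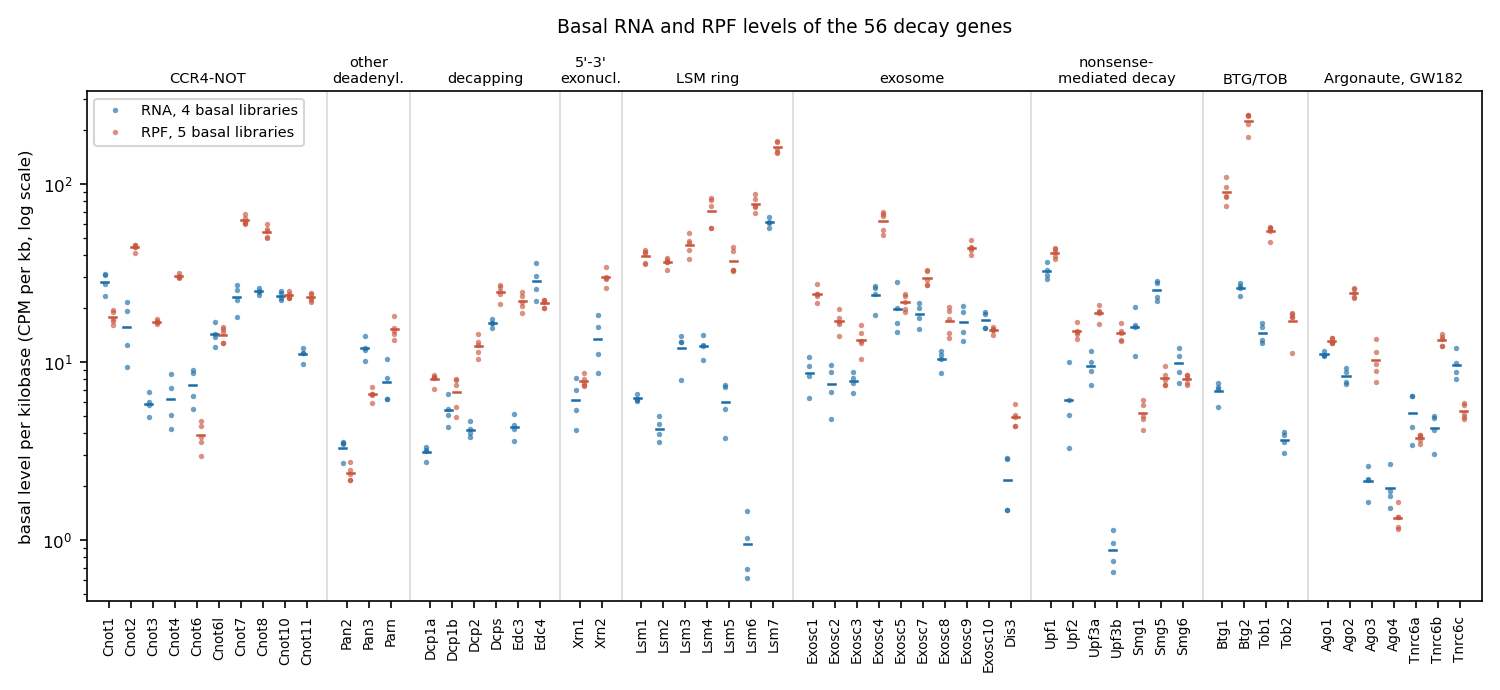
Basal level per kilobase (log axis) of each of the 56 genes in RNA (blue, 4 libraries) and RPFs (red, 5 libraries); points are libraries and bars their means. Btg2 and Lsm7 are the highest in RPFs and Ago4 the lowest, and Lsm6 and Upf3b show the widest gap between RNA and RPFs.

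The highest RPF levels belonged to a growth-arrest adaptor and an RNA-binding ring subunit. Btg2 (chr1:134075170-134079120, minus strand, mm10), an immediate early gene whose product binds the Cnot7 and Cnot8 deadenylases, had 244.9, 241.4, 245.7, 184.2 and 217.5 CPM per kilobase in the 5 basal RPF libraries. Replicate 4 was the lowest, followed by replicate 5. Lsm7 (chr10:80852821-80855209, minus strand), a subunit of the LSM ring, had 173.7, 150.6, 148.5, 157.0 and 173.3 CPM per kilobase in the same libraries. They stood at the percentiles 93.2 and 90.4 of RPF levels over all genes. At the other end, the Argonaute Ago4 had 1.335 ± 0.192 CPM per kilobase (SD, n = 5), from 22 to 75 counts per library, and Pan2, the catalytic subunit of PAN2-PAN3, had 2.39 ± 0.244.

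The resting ratio of RPFs to RNA was computed per length in basal replicates 1 to 4 and set to 0 (log2) at the median gene, so that a positive value means a higher density of ribosomes along the coding sequence, per mRNA, than for the median gene. The test was edgeR's quasi-likelihood F-test blocked on replicate, at a Benjamini-Hochberg adjusted p under 0.05 over 12822 genes. Of the 56 genes, 25 (44.6%) passed above and 19 (33.9%) below the median gene, beside 39.4% and 39.6% of all genes tested. The split between high and low was thus close to the background, with a median ratio of 0.33 for the 56 (0.19 without replicate 3). Members ranged from -2.49 to 5.51, whereas the quartiles of all genes were -0.96 and 1.04.

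**Figure D2:**
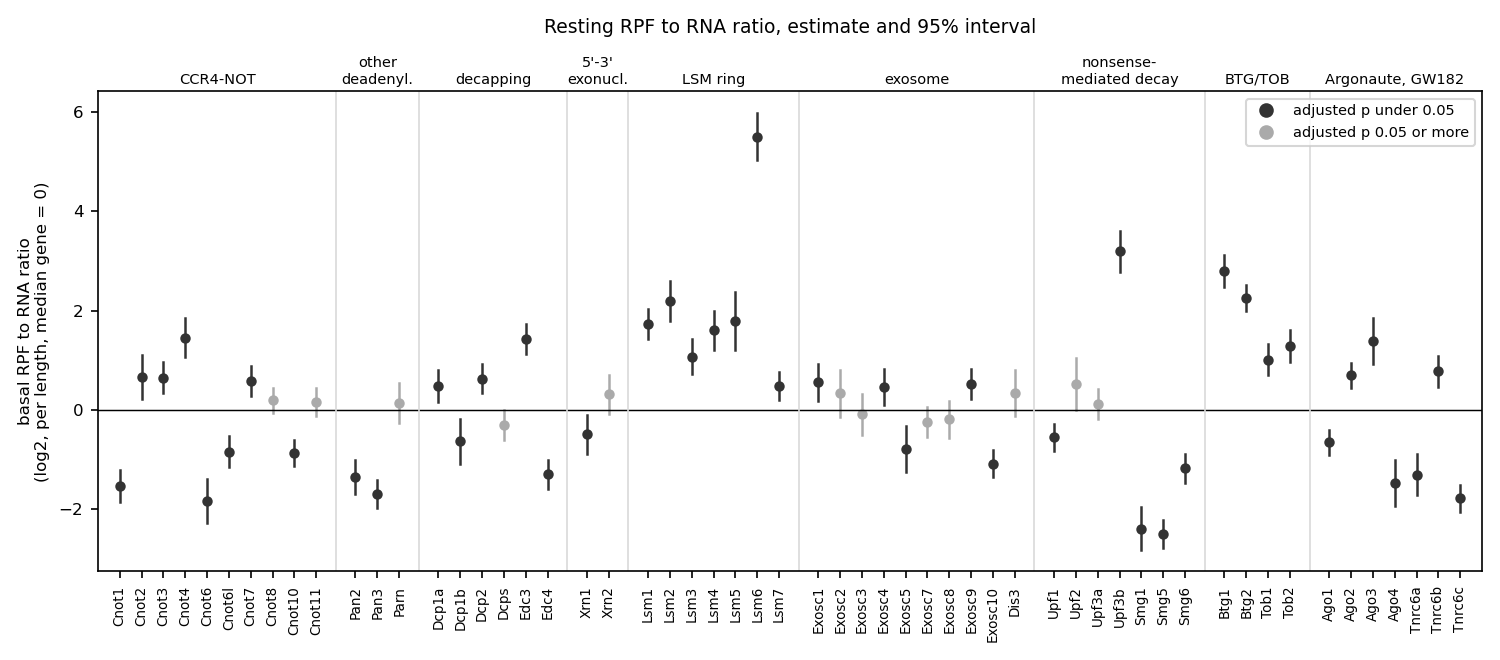
Basal RPF to RNA ratio (log2, per length, median gene at 0) of the 56 genes with 95% intervals; dark points passed an adjusted p of 0.05. All 7 LSM ring and all 4 BTG/TOB genes lie above 0, and Smg1, Smg5 and Smg6 lie below it.

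To show the site where ribosomes start on the members at both ends of this range, the 9 bases before the start codon, the ATG (capitals) and the 3 bases after it are given here 5′ to 3′ on the coding strand, from GENCODE M21 transcripts of mm10. The first 5 have the highest ratios and the last 5 the lowest.
Lsm6: ttgttaaacATGagc
Upf3b: accgtggccATGaag
Btg1: gccgcccccATGcat
Btg2: gccaccggtATGagc
Lsm2: tcggagccgATGgtg
Smg5: ccaggcaccATGagc
Smg1: gggaaggtaATGagc
Cnot6: tcgagaggcATGccc
Tnrc6c: gaacgtttgATGgaa
Pan3: ggcgtggccATGaac
A purine at position -3 (the third base before the ATG), the best known feature of a favourable start context, was present in 46 of the 56 genes (82.1%), beside 86.4% of 12462 genes tested that had a context. A G at position 4, directly after the ATG, was present in 29 (51.8%, beside 52.5%). The median ratio was 0.26 for members with the purine and 0.57 for the 10 without it, and over all genes it was 0.05 and -0.20. For the G it was 0.15 with and 0.52 without among members, and -0.01 and 0.05 over all genes. Members with both features (23) had a median of -0.09 and the other 33 of 0.52, beside 0.04 and 0.01 over all genes, a description of genes that differ in other ways too.

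Coding length moved with the ratio, as it did among genes at large. Across the 56 genes the Spearman correlation of the ratio with coding length was -0.61, and -0.55 across all genes tested. These are descriptions over genes, which share libraries and are no replicates, and coding length also enters the ratio as its divisor. With no length scaling the correlation over the 56 was still -0.49. The correlation with 3′ UTR length was 0.06 over the 56 and 0.37 over all genes.

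CCR4-NOT, the main cytoplasmic deadenylase, was mixed at rest: 4 of its 10 genes passed above, 4 below and 2 did not pass. The scaffold Cnot1 (chr8:95719451-95807464, minus strand) had the lowest but one ratio of the complex, -1.52 ± 0.141 (SE, adjusted p = 8.8e-06). The lowest was that of Cnot6, a catalytic subunit, at -1.83 ± 0.199 (adjusted p = 2.6e-05), with -2.20, -1.43, -1.45 and -2.42 in basal replicates 1 to 4. Cnot4, a ubiquitin ligase that joins the complex loosely, had the highest, 1.45 ± 0.173 (adjusted p = 4.8e-05). In RPF levels the catalytic subunits were both the top and the bottom of the complex: Cnot7 had 62.7 ± 3.33 and Cnot6 3.87 ± 0.679 CPM per kilobase (SD, n = 5), a 16.2-fold range.

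Each catalytic family of CCR4-NOT has a pair of paralogs. Cnot6l, the paralog of Cnot6, exceeded it in all 9 RNA and all 10 RPF libraries, by 1.96-fold in basal RNA and 3.71-fold in basal RPFs per length. In CPM the excess in RPFs was 3.7-fold, but in RNA Cnot6l was higher in 7 of 9 libraries, with a basal log2 difference of 0.11 ± 0.22 (SD, n = 4). The ratio of Cnot6l itself, -0.84, rests on its annotated length: with the longest transcript it became 0.56 (adjusted p = 0.0049). Cnot7 and Cnot8, the other pair, differed little. Cnot7 was higher in 6 of 9 RNA and 8 of 10 RPF libraries, and their basal log2 difference was -0.12 ± 0.28 in RNA (SD, n = 4; 0.24 ± 0.28 in CPM) and 0.22 ± 0.14 in RPFs (n = 5).

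Of the 3 other deadenylases, both subunits of PAN2-PAN3 passed below the median gene and Parn did not pass. Pan3, the adaptor subunit that recruits Pan2, had a ratio of -1.69 ± 0.124 (adjusted p = 2.1e-06), and its 4 replicate values lay between -1.82 and -1.53. Pan2 had -1.35 ± 0.148 (adjusted p = 2.8e-05). Parn, a deadenylase that also trims small RNAs, was highest of the 3 in RPF level (15.2 ± 1.77 CPM per kilobase) and its ratio of 0.15 ± 0.179 did not pass (adjusted p = 0.47; 0.039 without replicate 4).

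Decapping factors stood on both sides of the median gene, 3 above, 2 below and 1 not past the threshold. Edc3 (chr9:57708540-57752499, plus strand), an enhancer of decapping, had a ratio of 1.43 ± 0.135 (adjusted p = 1.1e-05). Edc4, the large scaffold of the same complex, had -1.30 ± 0.128 (adjusted p = 1.4e-05), although its RNA was the highest of the group at 28.5 ± 6.01 CPM per kilobase. Per length, RPF levels of the 6 genes lay within 3.66-fold, and RNA levels spanned 9.19-fold. The lowest in RPFs was Dcp1b at 6.78 ± 1.43 and the highest Dcps, the scavenger that clears cap remnants, at 24.8 ± 2.28. In basal CPM, RPFs ran from 11.4 (Dcp1b) to 88.7 (Edc4) and RNA from 17.3 (Dcp1a) to 136 (Edc4). The narrower RPF range was thus seen per length only.

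The paralogs Dcp1a and Dcp1b are cofactors of Dcp2. Per length, Dcp1a was lower than Dcp1b in all 9 RNA libraries, with 0.586 times its level in basal RNA, whereas in CPM it was higher in 4 of 9 (basal log2 difference -0.02 ± 0.36, SD, n = 4). In RPFs it was higher in 7 of 10 libraries, a basal log2 difference of 0.27 ± 0.24 (SD, n = 5), so the pair was not separated beyond the spread. Their ratios were 0.48 ± 0.142 (adjusted p = 0.012) and -0.63 ± 0.201 (adjusted p = 0.017), and the latter did not pass without replicate 2 (adjusted p = 0.066) or replicate 3 (0.070). Dcp2, the decapping enzyme, had 0.63 ± 0.128 (adjusted p = 0.0015), which became -1.16 with no length scaling.

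Of the 2 exonucleases that act from the 5′ end, nuclear Xrn2 was the more abundant, with 29.9 ± 2.90 CPM per kilobase in RPFs against 7.82 ± 0.513 for cytoplasmic Xrn1. The ratio of Xrn2, 0.32 ± 0.172, did not pass (adjusted p = 0.12, and 0.021 without replicate 4). That of Xrn1 was -0.49 ± 0.174 (adjusted p = 0.028), a call lost without replicate 1, 2 or 4 (adjusted p = 0.097, 0.062 and 0.12) and turned to 0.37 with its longest transcript.

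The LSM ring is a heteroheptamer that binds the oligoadenylated 3′ end of mRNAs and promotes decapping. All 7 of its genes passed above the median gene, beside 39.4% of genes tested. Their coding sequences are short, 243 to 417 nt, beside a median of 1446 nt over all genes tested. RPF levels ran from 36.3 ± 2.11 for Lsm2 to 161 ± 12.2 for Lsm7, a 4.42-fold range, whereas RNA levels of the 6 genes other than Lsm6 spanned 14.4-fold and of all 7 64.6-fold. In basal CPM, RPFs ran from 7.98 (Lsm5) to 40.5 (Lsm7) and RNA from 2.95 (Lsm5) to 28.6 (Lsm7). Subunits of this ring are present once each in the assembled complex, and Lsm2 to Lsm7 also serve a nuclear ring. Whether this bears on their levels was not tested.

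Lsm6 (chr8:78804865-78821140, minus strand) had the highest ratio of the 56, 5.51 ± 0.208 (adjusted p = 1.1e-07), which is 45.5 times that of the median gene. Its RNA gave 15 to 39 counts per basal library and its RPFs 81 to 299. The annotated transcript used is 3792 nt long for a coding sequence of 243 nt, and with no length scaling the ratio was 2.18. The other 6 had smaller values, from 0.48 ± 0.127 for Lsm7 to 2.20 ± 0.178 for Lsm2. RNA counts of Lsm2 were also low, 19 to 28 per basal library. Lsm1, the subunit that sets the cytoplasmic ring apart from the nuclear one, had 1.73 ± 0.136, and -0.19 with no length scaling. Only uniquely mapped reads were kept when the tables were made, so reads shared with near-identical copies of these small genes are not in the counts.

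The exosome, a barrel of ring and cap subunits with the nucleases Dis3 and Exosc10 attached, stood on both sides of the median gene. Of its 10 genes 3 passed above, 2 below and 5 did not pass. RPF levels of the 8 ring and cap genes measured ran from 13.4 ± 2.16 (Exosc3) to 62.1 ± 7.95 (Exosc4), a 4.65-fold range, and RNA levels spanned 3.17-fold. Dis3, the catalytic subunit, was the lowest of the group at 4.91 ± 0.595 CPM per kilobase in RPFs. Exosc10, the nuclear 3′ exonuclease, had the lowest ratio, -1.08 ± 0.120 (adjusted p = 3e-05; -0.14 with no length scaling, adjusted p = 0.31). The highest, 0.56 ± 0.162 for Exosc1, did not pass without replicate 2 (adjusted p = 0.064) and was 2.06 with its longest transcript, and that of Exosc4 (0.46 ± 0.161) not without replicate 1 or 4 (adjusted p = 0.13 and 0.073).

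Nonsense-mediated decay held the lowest ratios of the 56 genes and one of the highest. Smg5 (chr3:88336260-88362338, plus strand), which helps return Upf1 to its unphosphorylated state, had -2.49 ± 0.123 (adjusted p = 2.7e-07), with -2.32, -2.46, -2.73 and -2.44 in basal replicates 1 to 4. Smg1, the kinase of Upf1, had -2.39 ± 0.187 (adjusted p = 3.1e-06) and varied more between replicates, from -2.96 to -1.82. Smg6, the endonuclease of the pathway, had -1.17 ± 0.127 (adjusted p = 2.5e-05). Upf1 itself, the most abundant in RPFs (41.1 ± 2.35 CPM per kilobase), had -0.55 ± 0.122 (adjusted p = 0.0025), and 0.01 with no length scaling.

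Upf3a and Upf3b, paralogs that link Upf2 to the exon junction complex, differed far more in RNA than in RPFs. Upf3b (X chromosome, chrX:37091678-37110322, minus strand) had 0.767, 1.14, 0.659 and 0.964 CPM per kilobase in the basal RNA libraries, from 10 to 16 counts each. Upf3a had 10.01, 8.92, 7.43 and 11.6 in the same libraries, a 10.8-fold excess. In RPFs the excess of Upf3a was 1.31-fold, and Upf3b gave 131 to 398 counts per basal library. The ratio of Upf3b was 3.20 ± 0.184 (adjusted p = 5.6e-07), while that of Upf3a was 0.12 ± 0.137 (adjusted p = 0.43). Upf2, which joins Upf1 to the Upf3 proteins, had the largest spread of the 56 in basal RNA, with a 3.06-fold range over 4 libraries, and its ratio of 0.53 ± 0.231 did not pass (adjusted p = 0.059; 0.0028 without replicate 4).

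BTG/TOB adaptors, small antiproliferative proteins that tether CCR4-NOT to mRNAs, all had high ratios, with 4 of 4 past the threshold. Over all genes tested, 39.4% passed above the median gene. Coding sequences of the 4 run from 477 to 1089 nt, beside a median of 1446 nt over all genes tested. Btg1 had 2.81 ± 0.143 (adjusted p = 3e-07) and Btg2 2.25 ± 0.116 (adjusted p = 3.2e-07). Tob2 had 1.30 ± 0.142 (adjusted p = 2.7e-05) and Tob1 1.014 ± 0.140 (adjusted p = 0.00013). With no length scaling, Btg1 had 0.39, Btg2 0.57 and Tob1 0.90, each still past the threshold, and Tob2 had 0.25 and did not pass (adjusted p = 0.14). Btg2 exceeded Btg1 in all 9 RNA and 10 RPF libraries (3.8-fold and 2.52-fold in basal slices), and Tob1 exceeded Tob2 in all of them (4-fold and 3.28-fold). In CPM these RNA excesses were 2.08-fold and 2.2-fold, also in every library.

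Argonautes and GW182 proteins, the core of microRNA silencing, split by paralog. Ago2, the main slicer of the family, had the highest RPF level of the group, 24.4 ± 1.42 CPM per kilobase, followed by Ago1 at 13.1 ± 0.475, Ago3 at 10.3 ± 2.23 and Ago4 at 1.335 ± 0.192. Ago2 exceeded Ago1 in all 10 RPF libraries and Ago3 exceeded Ago4 in all 10, but Ago1 exceeded Ago3 in 8 of 10, so that these neighbours in the order were not fully separated. In RNA the order rested on annotated transcript lengths. Per length, Ago1 was above Ago2 in all 9 libraries, and Ago3 above Ago4 in 7 of 9, a log2 difference of 0.14 ± 0.15 (SD, n = 4). In CPM, with no length scaling, Ago2 was above Ago1 in all 9 (1.43-fold in basal slices) and Ago3 above Ago4 in all 9 (2.63-fold). Ago3, Ago1 and Ago4 are neighbours on the minus strand of chromosome 4, between 126331704 and 126533472.

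Ratios of the 4 Argonautes were 1.39 ± 0.205 for Ago3 (adjusted p = 0.0002), 0.70 ± 0.110 for Ago2 (adjusted p = 0.00028), -0.65 ± 0.112 for Ago1 (adjusted p = 0.00054) and -1.48 ± 0.206 for Ago4 (adjusted p = 0.00013). Ago3 and Ago2 are among the members with the longest 3′ UTRs, 12742 and 11064 nt, and turned to -0.20 and -0.71 with no length scaling. Among GW182 proteins, which bridge Argonaute to CCR4-NOT, Tnrc6b had 0.78 ± 0.139 (adjusted p = 0.00067; 0.13, adjusted p = 0.43, with no length scaling), and Tnrc6a and Tnrc6c had -1.30 ± 0.181 (adjusted p = 0.00014) and -1.78 ± 0.122 (adjusted p = 1.4e-06). Tnrc6b was the highest of the 3 in all 10 RPF libraries. In RNA it was the lowest in all 9 libraries per length, but in CPM it was above Tnrc6a and below Tnrc6c in all 9.

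Calls of the resting ratio depend on annotated lengths. Of the 44 calls, 30 remained in the same direction with no length scaling, 42 with the longest transcript of each gene, 44 with effective lengths and 43 when the DHPG libraries replaced the basal ones. Opposite calls arose for Dcp2, Xrn1 and Ago2 with no length scaling and for Cnot6l with longest transcripts. In all 4 settings 29 calls remained, 16 high and 13 low. The high ones were Cnot2, Cnot3, Cnot4, Edc3, Lsm2 to Lsm7, Exosc1, Exosc9, Upf3b, Btg1, Btg2 and Tob1. The low ones were Cnot1, Cnot6, Pan2, Pan3, Dcp1b, Edc4, Smg1, Smg5, Smg6, Ago1, Ago4, Tnrc6a and Tnrc6c.

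After 5 min of DHPG no decay gene passed the threshold in RNA. In the same edgeR test, 0 of 56 had an adjusted p under 0.01, the threshold for RNA, beside 0.00773% of the 12935 genes tested (1 gene), and 4 of 56 (7.1%) had an unadjusted p under 0.05, beside 8.02%. DESeq2 with the block also called 0 (1 with an unadjusted p under 0.05), as did ComBat followed by DESeq2 (8 with an unadjusted p under 0.05, 32 of 56 given no adjusted p). The log2 fold changes had a median of -0.010 (0.007 over all genes) and ran from -0.34 to 0.30, with standard errors of 0.069 to 0.303. The 95% interval lay within ±0.5 for 49 genes and within ±0.25 for 18.

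**Figure D3:**
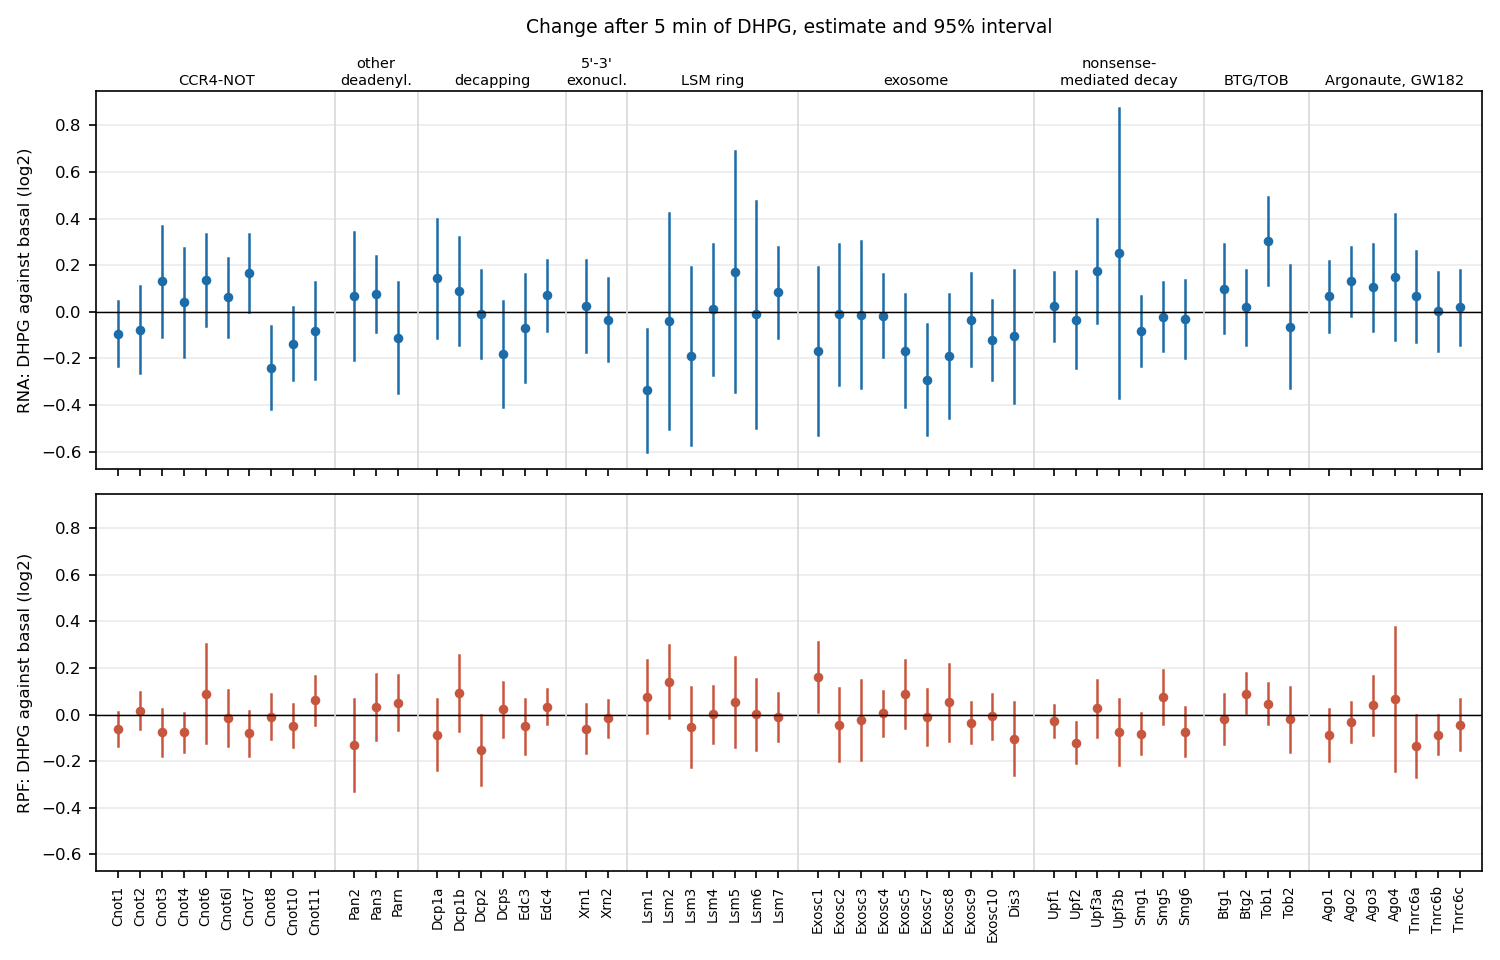
Log2 change of the 56 genes after DHPG in RNA (top) and RPFs (bottom) with 95% intervals from the edgeR fit with replicate as a block. Intervals are narrower in RPFs, where all 56 lie within ±0.5, and no gene passed its threshold in either assay.

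The smallest p in RNA was that of Tob1 (chr11:94211454-94215495, plus strand). It had 38.1, 29.3, 30.4 and 35.9 CPM in basal replicates 1 to 4 and 44.5, 44.9, 32.9, 43.8 and 36.7 in DHPG replicates 1 to 5. Each DHPG library was higher than its basal partner, in 4 of 4 pairs, while the ranges of the treatments overlapped. The log2 fold change was 0.30 ± 0.093 (SE, adjusted p = 0.54). Under the alternatives the adjusted p ran from 0.026, with ComBat and DESeq2, to 1.

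Cnot8, one of the paralogous catalytic subunits of CCR4-NOT, was the only member whose RNA libraries did not overlap between treatments, beside 0.51% of genes tested. It had 48.2, 51.1, 50.6 and 52.8 CPM in basal and 47.6, 43.3, 41.5, 39.6 and 46.9 CPM in DHPG libraries. The gap was small, since the lowest basal and the highest DHPG library were 48.2 and 47.6. The log2 fold change was -0.24 ± 0.086 (adjusted p = 0.55), and under the alternatives the adjusted p ran from 0.036, with ComBat and DESeq2, to 1. Its paralog Cnot7 had 71.2, 58.5, 46.8 and 66.4 CPM in basal and 69.7, 64.3, 61.1, 76.2 and 70.3 in DHPG libraries. The ranges overlapped widely, and the value was of the other sign, 0.17 ± 0.082 (adjusted p = 0.63).

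Lsm1 RNA had 16.2, 17.7, 16.5 and 16.2 CPM in basal and 11.0, 16.3, 15.4, 11.1 and 11.8 CPM in DHPG libraries. The ranges of the treatments overlapped, by 16.2 against 16.3 CPM. Replicates 1 and 4 differed by -0.56 and -0.55 (log2) and replicates 2 and 3 by -0.12 and -0.11. The fitted change was -0.34 ± 0.128 (adjusted p = 0.56). Exosc7, a ring subunit of the exosome, had 21.1, 16.1, 18.7 and 22.7 CPM in basal and 19.4, 14.4, 14.5, 16.2 and 14.6 CPM in DHPG libraries. It was lower in 4 of 4 pairs with overlapping ranges, at -0.29 ± 0.117 (adjusted p = 0.56). Ago2 had 127, 104, 106 and 121 CPM in basal and 126, 120, 116, 141 and 111 CPM in DHPG libraries, a change of 0.13 ± 0.073 (adjusted p = 0.66) with overlap of the treatments.

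By role, the exosome and the Argonaute group had RNA estimates of a single sign. All 10 exosome genes had a value below 0 (median -0.11, from -0.29 to -0.01), and all 7 Argonaute and GW182 genes a value above 0 (median 0.07, from 0.00 to 0.15). None passed. Over all genes, 52.1% of estimates were above 0. By replicate pair, the median of the exosome genes was -0.05, -0.15, -0.02 and -0.13. In these pairs 8, 7, 5 and 9 of the 10 exosome genes were lower, so their single sign belongs to the fitted values. The median of the Argonaute group was -0.06, -0.01, 0.14 and 0.21, which did not hold a single sign over the pairs. Genes of a group share libraries and are not replicates.

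In RPFs too, 0 of 56 genes passed, at an adjusted p under 0.05 in edgeR's test, beside 0.22% of 13208 genes (29). An unadjusted p under 0.05 was found for 6 of 56 (10.7%), beside 10.8%. ComBat followed by DESeq2 called 0 of the 15 members it gave an adjusted p (3 of 56 with an unadjusted p under 0.05, and 41 given no adjusted p), and DESeq2 with the block gave none of the 56 an adjusted p, since its own filter on low means set them aside (0 with an unadjusted p under 0.05). RPFs bounded the changes more tightly than RNA. Log2 fold changes ran from -0.15 to 0.16 with a median of -0.016 (0.003 over all genes), and the 95% interval lay within ±0.25 for 47 of 56 genes and within ±0.5 for all 56.

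Upf2 (chr2:5951469-6056703, plus strand) had the smallest p in RPFs. It had 56.03, 62.9, 54.2, 55.3 and 50.4 CPM in basal replicates 1 to 5 and 54.1, 56.5, 48.7, 53.2 and 45.7 CPM in DHPG replicates. It was lower in 5 of 5 pairs, by 0.05 to 0.16 (log2), with overlapping ranges. The change was -0.12 ± 0.043 (SE, adjusted p = 0.27), and over the alternatives that gave one the adjusted p ran from 0.063 to 1.

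Exosc1, a cap subunit of the exosome, had 12.4, 11.4, 12.7, 12.7 and 14.5 CPM in basal and 12.6, 13.6, 14.5, 15.1 and 14.7 CPM in DHPG RPFs. It was higher in 5 of 5 pairs, at 0.16 ± 0.075 (adjusted p = 0.43). Btg2 had 102, 101, 102, 76.8 and 90.7 CPM in basal and 113, 109, 92.8, 94.6 and 99.8 CPM in DHPG RPFs. Replicate 3 went the other way from the rest, and the change was 0.09 ± 0.042 (adjusted p = 0.43; 0.17, adjusted p = 0.054, without replicate 3 and 0.05, adjusted p = 0.76, without replicate 4). Btg2 RNA stood at 64.8-75.8 CPM in basal and 66.5-78.3 CPM in DHPG libraries (0.02 ± 0.079).

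Dcp2 RPFs had 12.6, 15.2, 13.9, 15.8 and 17.3 CPM in basal and 9.97, 14.0, 13.7, 14.1 and 14.0 CPM in DHPG libraries. They were lower in 5 of 5 pairs, at -0.15 ± 0.074 (adjusted p = 0.45). Tnrc6b had 74.0, 77.3, 65.7, 66.2 and 72.4 CPM in basal and 65.5, 69.4, 67.8, 64.4 and 65.2 CPM in DHPG libraries, and was lower in 4 of 5 pairs (-0.09 ± 0.042, adjusted p = 0.45). Tnrc6a had 21.9, 21.9, 20.4, 19.4 and 21.5 CPM in basal and 15.8, 21.5, 18.6, 20.2 and 17.9 CPM in DHPG libraries, also lower in 4 of 5 pairs (-0.13 ± 0.066, adjusted p = 0.46). The treatments overlapped for all 3. No member in RPFs had treatments that did not overlap, beside 0.394% of genes tested.

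**Figure D4:**
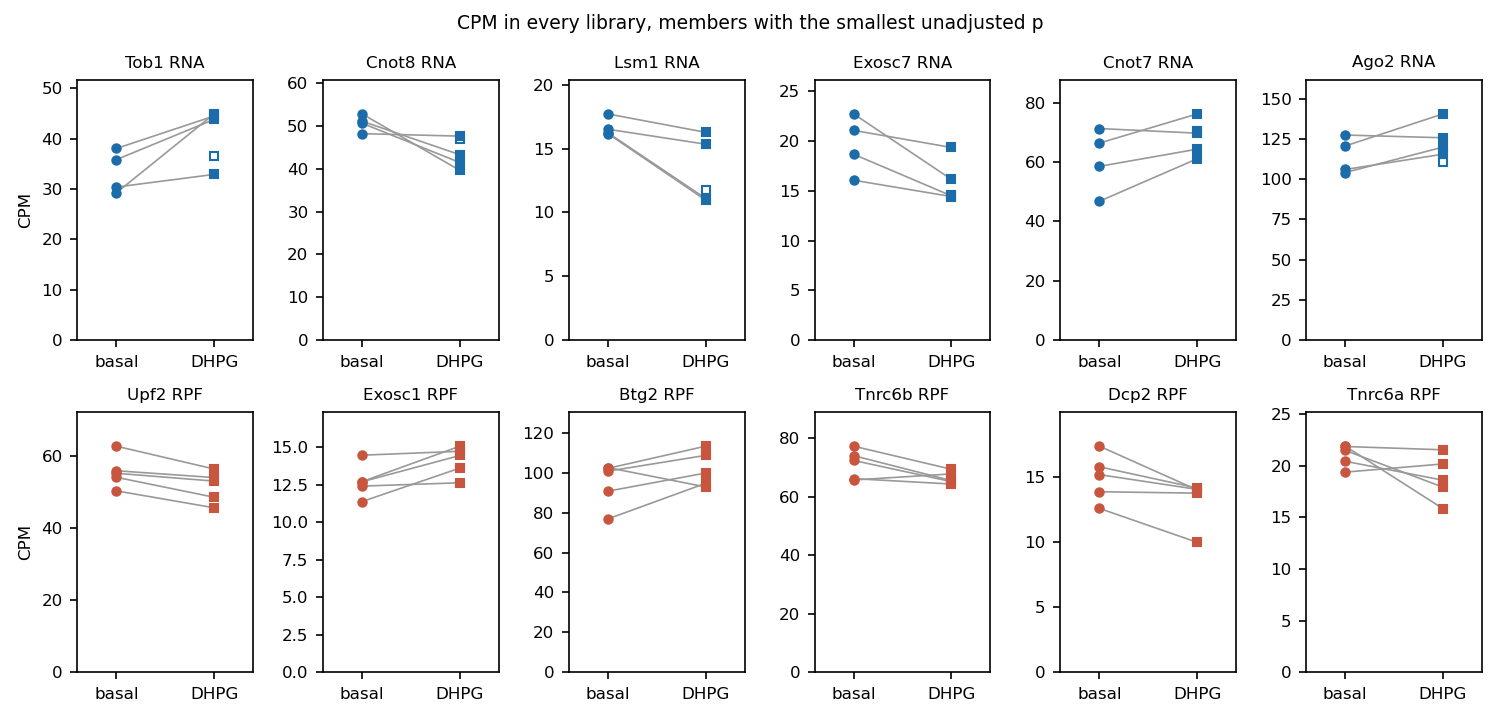
CPM in every library of the 6 genes with the smallest unadjusted p in RNA (top) and in RPFs (bottom), basal (circles) and DHPG (squares), with lines joining replicates of one number and open squares for RNA replicate 5, which has no basal partner. Only the RNA of Cnot8 shows no overlap between the treatments, by 48.2 against 47.6 CPM.

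Direction across replicate pairs was near the background. In RNA 11 of 56 genes (19.6%) moved one way in all 4 pairs, beside 15.6% of genes tested: Cnot3, Dcp1b, Upf3a and Tob1 were higher, and Cnot8, Cnot10, Dcps, Lsm1, Exosc7, Exosc8 and Exosc10 lower. In RPFs 7 of 56 (12.5%) did so in all 5 pairs, beside 9.87%. These were Dcp1b, Exosc1, Exosc5 and Smg5 (higher) and Cnot4, Dcp2 and Upf2 (lower). Dcp1b was the only gene in both lists, at 0.09 ± 0.112 in RNA and 0.09 ± 0.081 in RPFs. These counts took no account of size. In RNA replicate 2, Dcp1b had 16.69 CPM in both treatments, and Cnot3 had 19.16 in basal and 19.17 in DHPG. In RPF replicate 4, Exosc5 had 14.12 in basal and 14.13 in DHPG.

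Whether DHPG changed RPFs differently from RNA was tested over all 19 libraries with an interaction term for assay by treatment. None of the 56 genes had an adjusted p under 0.05 in edgeR, beside 0% of 12691 genes, and 6 (10.7%) had an unadjusted p under 0.05, beside 6.77%. limma on the difference of log2 CPM also called 0 of the 56, with 5 at an unadjusted p under 0.05. The 6 genes were Lsm1 (0.41 ± 0.145, adjusted p = 0.68), Cnot7 (-0.25 ± 0.090, adjusted p = 0.68), Tob1 (-0.26 ± 0.096, adjusted p = 0.68), Cnot8 (0.23 ± 0.093, adjusted p = 0.69), Exosc7 (0.28 ± 0.119, adjusted p = 0.69) and Ago2 (-0.17 ± 0.075, adjusted p = 0.72). They are the 6 genes with the smallest p in RNA, whose values enter both tests, and in RPFs their changes lay between -0.08 and 0.08.

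Other genes of RNA decay outside the 56 (60 genes, all tested, among them exosome cofactors, microRNA processing factors and regulators of unstable mRNAs) gave the same count of calls after DHPG: 0 in RNA, 0 in RPFs and 0 in the interaction. An unadjusted p under 0.05 was found for 10 in RNA (16.7%, beside 8.02% of all genes tested), 4 in RPFs (6.7%, beside 10.8%) and 7 in the interaction (11.7%, beside 6.77%). The smallest in RNA were those of Zfp36l2 (0.47 ± 0.128, adjusted p = 0.43) and Zfp36l1 (0.41 ± 0.119, adjusted p = 0.53), which recruit CCR4-NOT to AU-rich mRNAs. Zfp36l2 was also second in RPFs (0.19 ± 0.062, adjusted p = 0.21), after Dgcr8, a partner of Drosha (-0.18 ± 0.058, adjusted p = 0.19). In the resting ratio 25 of the 60 were high and 27 low, beside 39.4% and 39.6% of all genes.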

How the data were processed

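Expected counts per gene were deposited by the authors in separate tables for RNA and RPFs, each of 20436 genes. Per the study's methods and the labels' processing notes, reads were trimmed with cutadapt, quality filtered with Trimmomatic, cleared of rRNA with Bowtie2, aligned to mm10 with TopHat2, kept where uniquely mapped, stripped of duplicates by molecular identifiers and counted with RSEM, for RPFs over coding sequences without 30 nt at each end. The authors then used ComBat and DESeq2. A total of 12 columns, of further numbered replicates, matched no sample of this series and were not used. The study's own DHPG comparison in wild-type slices drew on more replicates than the libraries here, among them CA1-enriched slices.

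Counts were rounded and fitted in edgeR 4.0.16 (R 4.3.3) with TMM scaling, its expression filter, a prior count of 2 and quasi-likelihood tests across all genes, Benjamini-Hochberg adjusted, with thresholds of 0.01 for RNA and 0.05 elsewhere. Lengths came from GENCODE M21, matched for 98.9% of genes, and the ratio needed a coding sequence of 150 nt. DESeq2 1.42.0, limma 3.58.1 and sva 3.50.0 served for alternatives. Replicate was a block: same-numbered libraries deviated together, with correlations of 0.3083 to 0.7408 in RNA and 0.2587 to 0.5231 in RPFs. The study's methods also number batches 1 to 5, but do not say that these are the replicate numbers. With this block, the DHPG p-values measure how the difference between DHPG and basal pools varied over replicates. Those of the ratio measure how the difference between RPFs and RNA varied over replicates. The interaction fit blocked each assay by replicate and did not pair the RNA and RPFs of the same pool.

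On simulated counts the fits called 66.7% of 195 genes changed by 0.5 (log2) in RNA and 90.5% of 200 in RPFs. They called 63.8% of 199 changed by 0.5 in the interaction and 90.3% of 196 changed by 1 in the ratio. Of all calls, 0 of 130 were false in RNA and 14 of 195 in RPFs. In the interaction 9 of 136 were false, and in the ratio 13 of 190. An adjusted p depends on how many other genes change. The DHPG fits to the real counts called 1 gene in RNA, 29 in RPFs and 0 in the interaction. For these fits the percentages therefore do not give the chance of calling a single decay gene changed by 0.5. Named genes were the 6 members with the smallest p in each DHPG comparison, the members with the highest and lowest RPF level and resting ratio of each role and the paralog pairs, 42 in all. Cnot1, Smg6 and Exosc3 fall outside this rule and were added after their values were seen. Members and lists were chosen with earlier results of these data known. Alternatives were other scaling, filters and tools, no block, other lengths, and leaving out each replicate.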

Additional observations from a re-analysis of the deposited data

Results flagged for a closer look

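Of 24 groups of library values screened for a sample far from the others, 1 stood out, where chance gives about 1 in 20 groups, or 1.2. It was Dcp2, the decapping enzyme, in RPFs of DHPG slices: replicate 1 had 9.97 CPM, whereas the other 4 libraries lay between 13.7 and 14.1 CPM. In that pair the DHPG library was lower than its basal partner by -0.33 (log2).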

How the results depend on the processing

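No alternative that gave adjusted p-values called a decay gene after DHPG in RNA, RPFs or the interaction. ComBat with DESeq2 gave one to 24 of 56 members in RNA and 15 in RPFs, and DESeq2 with the block to none in RPFs, so these tested few or none of the 56. Over all genes, the 1 call in RNA became 7 with no filter on low counts, 22 without replicate 2 and 100 with ComBat and DESeq2, and the 29 in RPFs became 96, 3 and 427. With no replicate block 0 genes were called in each of these, 1, 0 and 1 members having an unadjusted p under 0.05.

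The members' median resting ratio of 0.325 was 0.436 with no filter, 0.112 with no length scaling, and 0.189 to 0.393 when each replicate was left out. With no length scaling, ratios changed sign for Cnot7 (-0.092), Cnot8 (-0.079), Dcp1a (-0.155), Dcp2 (-1.162), Dcps (0.321), Xrn1 (0.446), Lsm1 (-0.191), Exosc7 (0.430), Upf1 (0.010), Ago2 (-0.709) and Ago3 (-0.202). Outside the naming rule, Exosc3 (from -0.088 to 0.457) and Exosc8 (from -0.187 to 0.098) did so too. With the longest transcript, ratios changed sign for Cnot6l (0.561) and Xrn1 (0.365), and in DHPG libraries for Exosc7 (0.038) and Upf3a (-0.056). In CPM, added after the values were seen, basal RNA differences (log2) changed sign for Cnot7 over Cnot8 (0.244), Ago2 over Ago1 (0.514) and Tnrc6b over Tnrc6a (0.829). These alternatives change the divisor or the libraries, and no further cause was tested. Of the other values for named genes and paralog pairs, 709 kept their direction and call, 9 differences between paralogs moved by more than their SD, 14 fell short of the threshold and 17 newly passed. Basal RNA counts of 10 to 39 for Upf3b, Lsm2, Lsm5 and Lsm6 limit their RNA changes.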
